A study of Homo sapiens with 5 samples.

Results

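EIR clone 4 is a cell clone that acquired resistance to GSK126, an inhibitor of the histone methyltransferase EZH2, and its RNA was compared here with that of the parental line. That line, TOV21G, comes from a clear cell carcinoma of the ovary and bears mutations in ARID1A, which all 5 libraries therefore share. EZH2 inhibitor-resistant (EIR) cells were obtained by growing TOV21G in GSK126 at 5, then 10, 15 and 20 uM, after which clones were picked. Clone 4 contributed 2 of the 5 RNA-seq libraries, 1 from untreated cells and 1 from GSK126-treated cells. The others were 1 library of untreated parental cells and 2 libraries of EIR clone 3, again untreated and GSK126-treated. For the treated cultures the labels state neither how much GSK126 was added nor for how long. Wherever 2 values are given for a clone, the untreated library comes first.

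The libraries summed to between 25479238 and 30764963 estimated counts, and between 15588 and 16432 genes had at least 10 counts. Counts were normalized with DESeq2 size factors, which adjust for depth. Of 30476 gene identifiers, 11564 averaged at least 100 normalized counts over the 5 libraries and are called expressed. A gene is called moved in clone 4 if DESeq2 gave an adjusted p under 0.05 against parental cells and if each clone 4 library lay 2-fold or more from the parental library in that direction. By this rule 1688 expressed genes had moved. Parental cells have 1 library and each clone is a single clone, so the spread behind every p-value came only from the untreated and treated library within clone 3 and within clone 4.

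EZH2 is the catalytic subunit of polycomb repressive complex PRC2, which methylates H3K27 and keeps developmental genes silent. SWI/SNF complexes, of which ARID1A is a subunit and SMARCA4 or SMARCA2 the ATPase, remodel nucleosomes and oppose polycomb silencing at many promoters. Promoters rich in the dinucleotide CG (CpG islands) are the usual sites of PRC2, whereas DNA methylation can silence promoters of either kind. A picked clone descends from 1 cell of the resistant population.

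The promoters of 6 genes are shown because these genes marked the extremes of clone 4. ATP10A, TFCP2 and PBDC1 were expressed in parental cells and clone 3 and were at or near 0 counts in clone 4. LIN7A, SUCNR1 and FIRRE were at or near 0 counts in parental cells and were higher in both clones, although SUCNR1 was low in clone 3. Each sequence is the RefSeq promoter window on GRCh38.p14, 5′ to 3′ on the strand of the gene, from 250 bases before to 50 bases after the annotated start, with every CG in capitals.
ATP10A, chr15:25863278-25863577, minus strand: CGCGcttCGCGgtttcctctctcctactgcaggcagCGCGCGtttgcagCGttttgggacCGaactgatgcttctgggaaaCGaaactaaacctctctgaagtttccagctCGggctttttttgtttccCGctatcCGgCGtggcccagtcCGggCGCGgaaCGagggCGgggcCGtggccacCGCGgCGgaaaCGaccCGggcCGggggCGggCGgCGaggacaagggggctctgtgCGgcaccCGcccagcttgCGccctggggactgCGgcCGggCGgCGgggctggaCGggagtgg
TFCP2, chr12:51173086-51173385, minus strand: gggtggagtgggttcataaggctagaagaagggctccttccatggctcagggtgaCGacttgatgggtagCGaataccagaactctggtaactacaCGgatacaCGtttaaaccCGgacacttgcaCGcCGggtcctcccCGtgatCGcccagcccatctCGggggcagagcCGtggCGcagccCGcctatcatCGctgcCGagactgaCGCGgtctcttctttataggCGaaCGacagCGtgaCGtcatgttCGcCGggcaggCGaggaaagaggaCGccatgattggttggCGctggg
PBDC1, chrX:76172812-76173111, plus strand: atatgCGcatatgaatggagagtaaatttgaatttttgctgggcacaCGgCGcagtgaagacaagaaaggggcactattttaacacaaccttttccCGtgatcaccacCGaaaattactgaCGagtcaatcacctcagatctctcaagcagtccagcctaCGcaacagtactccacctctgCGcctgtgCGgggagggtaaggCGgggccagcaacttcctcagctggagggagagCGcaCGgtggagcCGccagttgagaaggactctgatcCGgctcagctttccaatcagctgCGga
LIN7A, chr12:80937885-80938184, minus strand: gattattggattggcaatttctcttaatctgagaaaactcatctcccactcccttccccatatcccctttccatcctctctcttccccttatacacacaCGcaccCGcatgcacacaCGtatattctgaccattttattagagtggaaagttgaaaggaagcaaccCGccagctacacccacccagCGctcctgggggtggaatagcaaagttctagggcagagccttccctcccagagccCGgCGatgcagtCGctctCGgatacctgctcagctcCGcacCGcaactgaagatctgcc
SUCNR1, chr3:151873393-151873692, plus strand: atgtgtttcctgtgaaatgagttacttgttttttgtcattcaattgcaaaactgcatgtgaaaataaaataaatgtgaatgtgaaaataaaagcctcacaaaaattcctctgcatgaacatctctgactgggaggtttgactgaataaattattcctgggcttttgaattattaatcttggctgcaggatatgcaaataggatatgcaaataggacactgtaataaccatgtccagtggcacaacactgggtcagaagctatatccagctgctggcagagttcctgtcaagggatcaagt
FIRRE, chrX:131830594-131830893, minus strand: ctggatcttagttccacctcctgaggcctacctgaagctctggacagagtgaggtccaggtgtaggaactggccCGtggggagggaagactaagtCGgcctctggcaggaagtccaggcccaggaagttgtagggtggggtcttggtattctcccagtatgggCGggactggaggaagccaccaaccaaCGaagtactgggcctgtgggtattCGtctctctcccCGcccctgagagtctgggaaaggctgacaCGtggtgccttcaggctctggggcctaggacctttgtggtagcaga

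In these windows ATP10A held 37 CG, TFCP2 26, PBDC1 15, LIN7A 11, FIRRE 7 and SUCNR1 0. The ratio of CG observed to CG expected from the C and G content was 1.05 for ATP10A, 0.971 for TFCP2, 0.703 for PBDC1, 0.578 for LIN7A, 0.272 for FIRRE and 0 for SUCNR1. CG reads the same on both strands. Of all 27305 RefSeq promoter windows, 48.9% had a ratio above 0.6, and of the 9061 expressed genes with a matched window, 85.7% did. The 3 genes lost in clone 4 lay above 0.6 and the 3 genes gained lay below it.

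Clone 4 differed from parental cells far more than its own libraries differed from each other. Ratios of each clone 4 library to parental cells had an SD, on the log2 scale and over expressed genes, of 1.14 in the untreated and 1.13 in the treated library, against 0.387 between the 2 clone 4 libraries and 0.812 to 0.871 between clone 4 and clone 3 libraries. DESeq2 called 2052 of 11564 expressed genes higher (17.7%) and 2580 lower (22.3%) in clone 4 than in parental cells. The 1688 moved genes comprised 689 that were higher (5.96%) and 999 that were lower (8.64%). The median fitted change of moved genes was 1.57 on the log2 scale for rises and -1.64 for falls. Of the moved genes, 1687 were also called by edgeR.

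Clone 3 shared most of these changes. A moved gene is called shared if each clone 3 library also lay 2-fold or more from the parental library in that direction, which held for 999 genes (452 higher, 547 lower). This count has no test, since both clones were set against the same parental library. A moved gene is called particular to clone 4 if neither clone 3 library reached 2-fold in that direction and if clone 4 differed from clone 3 in that direction by the DESeq2 test (adjusted p under 0.05). That was the case for 364 genes, of which 91 were higher and 273 lower. For comparison, the clone 4 against clone 3 test called 754 expressed genes higher (6.52%) and 1065 lower (9.21%) in clone 4. The remaining 325 moved genes were intermediate. Without the untreated clone 3 library the particular count was 206 and without the treated one 207, with fewer libraries in the test.

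**Figure D1:**
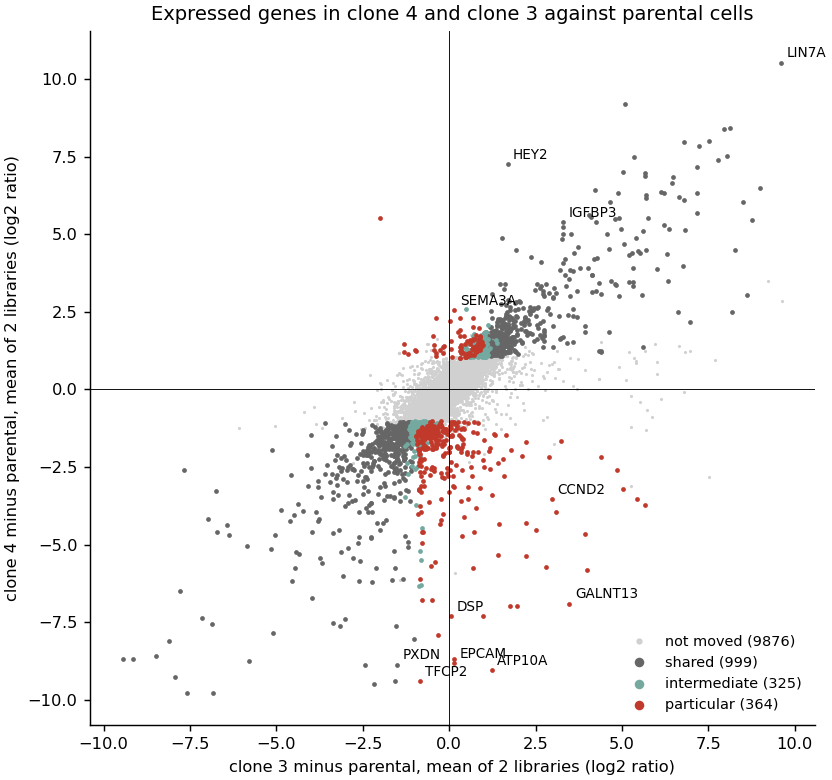
Each point is 1 of 11564 expressed genes, plotted by its mean log2 ratio to the parental library in clone 3 (x axis, 2 libraries) and in clone 4 (y axis, 2 libraries). Colours mark 999 shared, 325 intermediate and 364 particular moved genes, and the particular falls form the cloud below 0 at clone 3 values near 0 and above.

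The most extreme falls particular to clone 4 were losses to the limit of detection. Of the 999 moved falls, 23 ended at 3 counts or fewer in both clone 4 libraries, and 16 of the 23 were particular to clone 4. The filter on the mean over all 5 libraries favours that class, since a gene lost in clone 4 passes more easily if clone 3 still expresses it. Among genes named here and below, ATP10A, GALNT13, ARAP2 and EMSLR reached the required mean only through clone 3. The median parental value of the 16 genes was 134 normalized counts, too low for the required mean without counts from clone 3. The count of 16 among 23 therefore depends on the filter and cannot show that such losses are mostly particular to clone 4. ATP10A, an imprinted gene on chromosome 15 that encodes a phospholipid flippase (chr15:25922420-26110331, GRCh37), had 263 normalized counts in parental cells, 0 and 0 in clone 4 and 556 and 679.9 in clone 3. No count fell on it in either clone 4 library, and clone 3 was above parental cells. Against a floor of 3 counts per library, ATP10A was at least 82.8-fold lower in clone 4 than in parental cells and at least 175-fold lower than in clone 3. GALNT13, a transferase that starts O-linked glycans, had 59.4 in parental cells, 0 and 0 in clone 4 and 610.1 and 728 in clone 3. It too was at 0 in both clone 4 libraries, at least 18.7-fold under parental cells and at least 192-fold under clone 3.

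TFCP2, a transcription factor, had 773 in parental cells, 0 and 2.12 in clone 4 and 437 and 415 in clone 3. The parental to clone 4 ratio was 745 (95% counting interval 205 to 6161), an interval that covers counting error only. EPCAM, an adhesion molecule of epithelial cells, had 401 in parental cells, 0 and 1.06 in clone 4 and 394 and 492 in clone 3, a ratio of 773 (95% counting interval 138 to 30606). PBDC1, on the X chromosome, had 359.6 in parental cells, 1.02 and 0 in clone 4 and 368 and 422 in clone 3, a ratio of 693 (95% counting interval 124 to 27461). For EPCAM and PBDC1 the clone 3 libraries lay at or near the parental value, so the loss separated clone 4 from the other 3 libraries without overlap.

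ARAP2, a GTPase-activating protein for small GTPases, had 244 in parental cells, 1.02 and 1.06 in clone 4 and 381 and 599.9 in clone 3. The long non-coding RNA EMSLR had 275 in parental cells, 0 and 2.12 in clone 4 and 229.6 and 209.5 in clone 3, and it overlaps IFT22 on the other strand, so its counts are uncertain if strand was not used in counting. Both were lower in the 2 clone 4 libraries than in any other library, and both passed the test against clone 3 (DESeq2 adjusted p = 7.56e-15 and 4.88e-11). DSP, the desmosomal plaque protein desmoplakin, kept a measurable level in clone 4. It had 6152 in parental cells, 54.9 and 26.4 in clone 4 and 5471 and 7423 in clone 3, a fitted log2 change of -7.24 ± 0.64 (SE, adjusted p = 6.65e-28) against parental cells and -7.31 against clone 3.

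**Figure D2:**
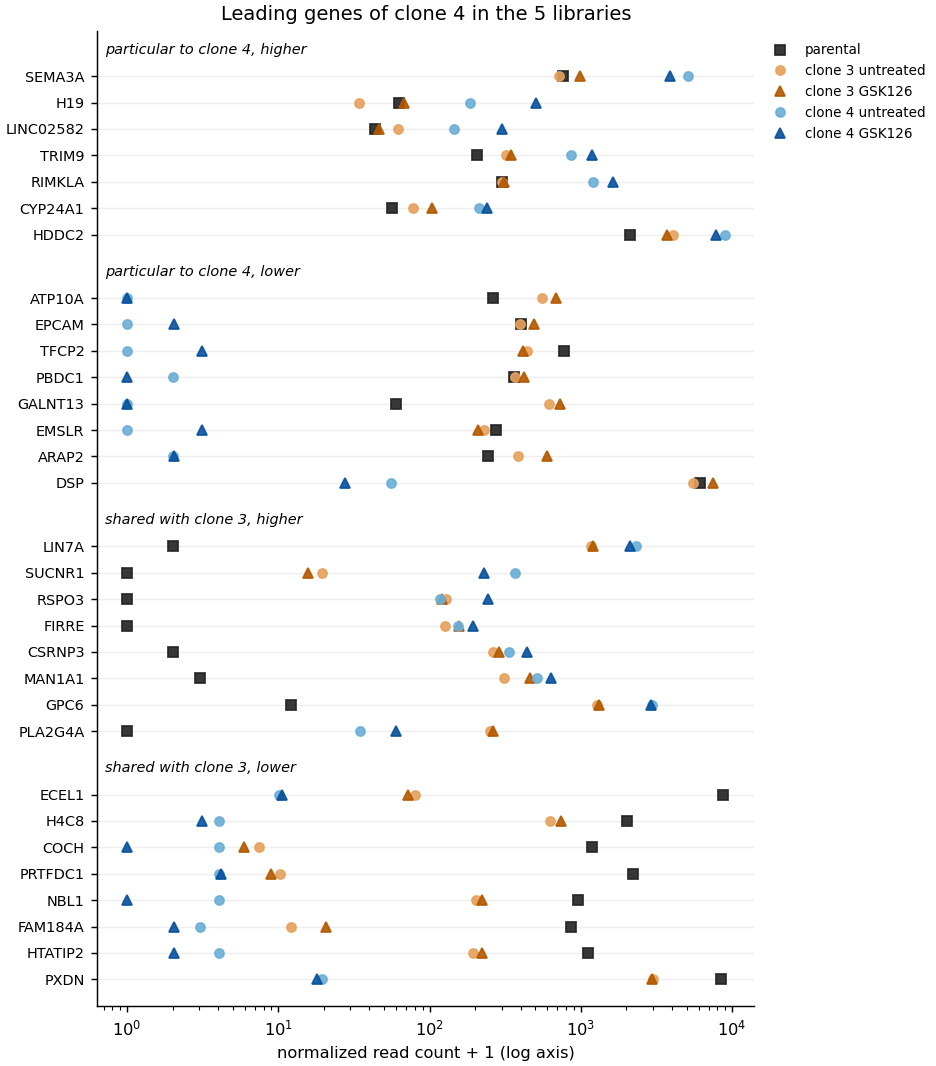
Normalized read count plus 1 in each of the 5 libraries (log axis) for leading rises and falls of the particular and shared classes, by fitted change. In the particular falls the 2 clone 4 points lie far left of the 3 others, with ATP10A and GALNT13 at 0, and in the shared rises the parental point lies leftmost, at 0 for SUCNR1, RSPO3, FIRRE and PLA2G4A.

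Genes of epithelial junctions and keratins were the list with the lowest median in clone 4. Of 25 listed genes 10 were expressed, 7 fell and 1 rose against parental cells, and all 6 that met the 2-fold rule were particular to clone 4. Over all expressed genes 17.7% rose and 22.3% fell, the shares against which list counts here and below can be read. Of all 1688 moved genes 364 were particular. The filter over all 5 libraries favours that class. KRT19 reached the required mean only through clone 3, and ESRP2, low in both clones, was left out. The median fitted change of the list was -2.53 on the log2 scale, against -0.08 over all expressed genes, and -3.05 against clone 3. By library, the median log2 ratio to parental cells was -3.02 and -2.15 in clone 4 and 0.14 and 0.44 in clone 3.

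Besides EPCAM and DSP, the falls comprised MAL2, OCLN, PKP3, KRT19 and, by less than 2-fold, ELF3 (adjusted p = 0.0499). MAL2, an apical transport protein, had 4181 in parental cells, 183 and 235 in clone 4 and 2987 and 3994 in clone 3. OCLN, the tight junction protein occludin, had 1120.0 in parental cells, 91.6 and 174 in clone 4 and 1539.6 and 1722 in clone 3. In both genes clone 4 lay below all other libraries and clone 3 lay within 2-fold of the parental value, and the fitted changes were -4.32 ± 0.23 and -3.08 ± 0.30 (log2 ± SE, adjusted p = 7.52e-74 and 6.52e-23). PKP3, a desmosomal plakophilin, had 287 in parental cells, 52.9 and 93.1 in clone 4 and 381 and 435 in clone 3, with a fitted change of -1.98.

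The keratins did not move as a block. KRT19 had 113 in parental cells, 0 and 7.41 in clone 4 and 1632 and 1998 in clone 3, so that clone 3 was above and clone 4 below parental cells, but its fall against parental cells just passed the test (adjusted p = 0.0464), was lost when either clone 3 library was left out (adjusted p = 0.309 and 0.302) and rests on reads that related keratin genes and pseudogenes can share. KRT18 rose slightly, from 11981 to 18326 and 17186 (clone 3 13250.0 and 15197, fitted change 0.57 ± 0.16, adjusted p = 0.0027), and leaving out a clone 3 library raised that p to 0.0531 and 0.0521. KRT8, its partner, had 5573 in parental cells, 4419 and 4582 in clone 4 and 6133 and 8080.1 in clone 3 and did not pass. ESRP2, an epithelial splicing factor, had 276 in parental cells, 4.07 and 3.17 in clone 4 and 5.55 and 0.988 in clone 3, and was 1 of 13 matched members that the expression filter left out, with a mean under 100.

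Most inflammatory and NF-kB genes were lower in clone 4 than in either comparator. Cytokines and chemokines recruit immune cells, and their transcription is driven largely by NF-kB. Of 22 expressed list members, 16 fell and 2 rose against parental cells, 13 met the 2-fold rule downward, and 12 of those 13 were particular to clone 4. Against clone 3, 20 of the 22 were lower and 0 higher, while all expressed genes gave 9.21% lower. The filter over all 5 libraries favours members that are high in clone 3, and CCL20 reached the required mean only through clone 3. The list median was -1.23 against parental cells and -2.13 against clone 3. The library medians were -1.15 and -1.33 in clone 4 and 0.66 and 0.52 in clone 3, so the medians of the clones lay on opposite sides of parental cells. Single members differed in clone 3. CXCL1, CXCL8, C3 and CCL20 were above parental cells there, whereas CXCL5, IL6, ICAM1, NFKBIA and NFKB2 were below.

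CXCL5, a neutrophil chemokine, had 3039 in parental cells, 59 and 36 in clone 4 and 393 and 336 in clone 3. Both clones were below parental cells and clone 4 was lowest, with a fitted change of -6.00 ± 0.29 (adjusted p = 3.18e-89). IL6, an acute phase cytokine, had 1642 in parental cells, 162 and 107 in clone 4 and 1201 and 978 in clone 3. TNF had 809.8 in parental cells, 106 and 81.5 in clone 4 and 987 and 763 in clone 3. For both, clone 3 lay within 2-fold of the parental level and clone 4 far below it, with fitted changes of -3.61 ± 0.28 and -3.11 ± 0.30 (log2 ± SE, adjusted p = 3.2e-36 and 2.55e-23). CXCL1 had 2372 in parental cells, 456 and 348 in clone 4 and 5676 and 5187 in clone 3, so the clones moved in opposite directions from parental cells.

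ICAM1, the leukocyte adhesion receptor, had 2307 in parental cells, 244 and 255 in clone 4 and 1302 and 1231 in clone 3. Among members of the NF-kB pathway, its inhibitor NFKBIA had 6373 in parental cells, 2134 and 1509.7 in clone 4 and 4012 and 3806 in clone 3 and the precursor NFKB2 had 2586 in parental cells, 714 and 769 in clone 4 and 1820.1 and 1852 in clone 3. All 3 were lowest in clone 4, with fitted changes of -3.21, -1.81 and -1.80 against parental cells. Exceptions within the list were CXCL8, which rose from 182 to 524 and 336 while clone 3 reached 6288 and 7187, and C3, which rose from 2619.7 to 4414 and 3784 with clone 3 at 11210.5 and 7092 (adjusted p = 0.0228). CCL20 showed a difference between clones only, with 68.5 in parental cells, 78.3 and 39.1 in clone 4 and 4697 and 4885 in clone 3.

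MHC class I antigen presentation displays intracellular peptides to T cells. Of 16 expressed members 9 fell and 1 rose against parental cells, and 10 were lower and 0 higher than in clone 3. The median fitted change was -0.52 against parental cells and -0.64 against clone 3. HLA-B, a class I heavy chain, had 3176 in parental cells, 221 and 309 in clone 4 and 3735 and 4332 in clone 3. PSMB8, an immunoproteasome subunit, had 747 in parental cells, 129 and 135 in clone 4 and 1101 and 1238 in clone 3. For both genes the 2 clone 4 libraries were several-fold below the 3 others, with fitted changes of -3.58 ± 0.22 and -2.50 ± 0.26 (adjusted p = 1.2e-55 and 2.25e-20).

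HLA-E had 4403 in parental cells, 1712 and 1846 in clone 4 and 3418 and 3095 in clone 3, and TAP1, which carries peptides into the endoplasmic reticulum, had 1808 in parental cells, 884 and 863 in clone 4 and 2367 and 2526 in clone 3. Both were lowest in clone 4, with changes of -1.31 and -1.05 on the fitted log2 scale. Reads of class I genes are similar enough to be divided between them by estimation, so the values for single HLA genes are uncertain. PSMB10 went the other way and rose, with 208 in parental cells, 360.1 and 343 in clone 4 and 477 and 474 in clone 3 and a fitted change of 0.75 (adjusted p = 0.0371).

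**Figure D3:**
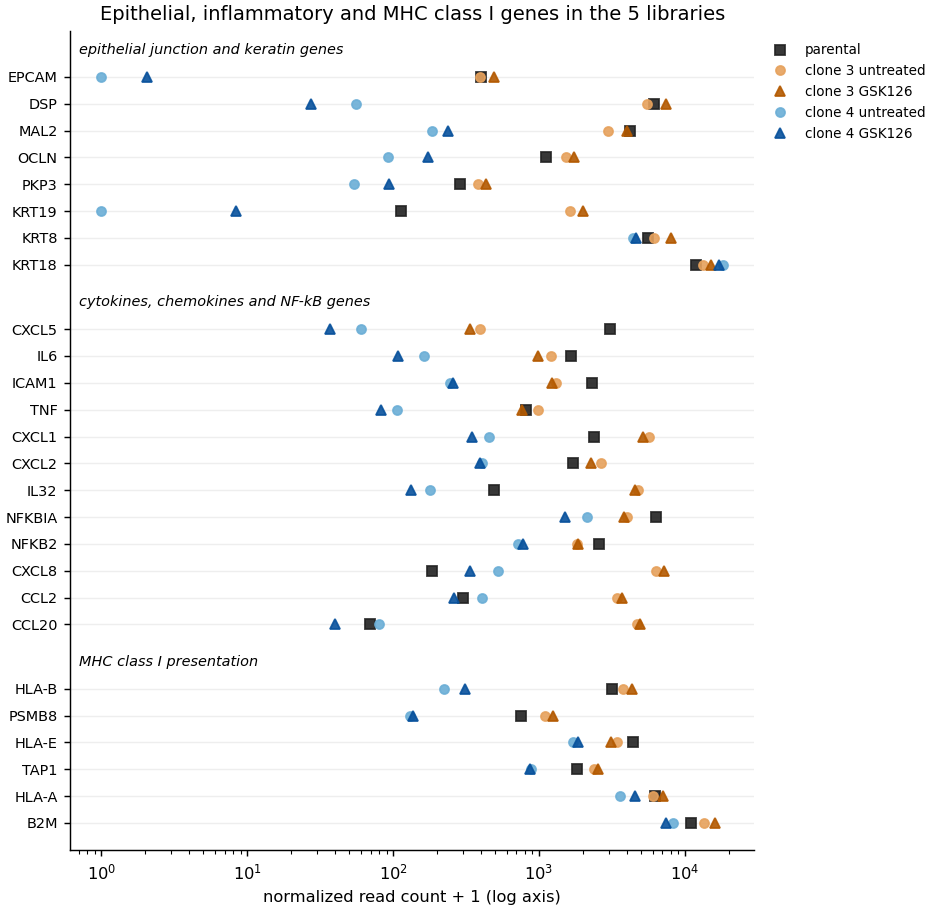
Normalized read count plus 1 in the 5 libraries (log axis) for genes of epithelial junctions, inflammation and MHC class I presentation. Clone 4 points (blue) lie left of parental and clone 3 points for most genes, whereas KRT18, CXCL8 and CCL20 are exceptions.

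AP-1 and immediate early genes encode transcription factors that respond within minutes to growth factors and stress. Of 17 expressed members 11 fell and 2 rose in clone 4, with a median of -0.92 (-0.58 after correction for GC content). NR4A1, an orphan nuclear receptor, had 508 in parental cells, 50.9 and 67.7 in clone 4 and 40.7 and 20.8 in clone 3, and KLF4 had 356 in parental cells, 81.4 and 107 in clone 4 and 67.6 and 90.9 in clone 3. Both clones were low and did not differ past the test for either gene. KLF6 had 3729 in parental cells, 964 and 1335 in clone 4 and 2977 and 2776 in clone 3 and was particular to clone 4, at -1.70 ± 0.22 against parental cells and -1.32 against clone 3. FOSL1, by contrast, rose (119.9 in parental cells, 334 and 582 in clone 4 and 282 and 327 in clone 3) with a fitted change of 1.93.

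Of 31 expressed interferon-stimulated genes 6 rose and 8 fell against parental cells, close to the 17.7% and 22.3% of all expressed genes, and 11 were lower and 0 higher than in clone 3. The antiviral genes SAMD9L and SAMD9 were shared rises. SAMD9L had 2.01 in parental cells, 261 and 238 in clone 4 and 195 and 247 in clone 3 and SAMD9 had 64.5 in parental cells, 1154 and 819 in clone 4 and 974 and 1150.3 in clone 3, with parental cells lowest and no difference between the clones past the test. The RNA sensor IFIH1 had 11.1 in parental cells, 98.7 and 152 in clone 4 and 299 and 353 in clone 3, highest in clone 3 (clone 4 minus clone 3, -1.38 on the log2 scale). Among falls, IFITM1 had 1719 in parental cells, 229 and 243 in clone 4 and 1853 and 1289 in clone 3 and was particular to clone 4 (-2.86 ± 0.26), whereas HERC5 had 471 in parental cells, 33.6 and 46.6 in clone 4 and 107 and 149 in clone 3 and was a shared fall.

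Rises particular to clone 4 were fewer than falls (91 against 273). The class admits a rise under 2-fold in clone 3, as in HDDC2 and TRIM9. SEMA3A, a secreted guidance factor, had 5125 and 3863 normalized counts in clone 4, 759 in parental cells and 712 and 993 in clone 3. HDDC2 had 8912 and 7774 in clone 4, 2125 in parental cells and 4061 and 3717 in clone 3, but it overlaps TPD52L1 on the other strand. RIMKLA, which synthesizes the dipeptide NAAG, had 1193 and 1632 in clone 4, 300.1 in parental cells and 299 and 311 in clone 3, and TRIM9, a ubiquitin ligase known from brain, had 861 and 1179 in clone 4, 205 in parental cells and 321 and 342 in clone 3.

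In these 4 genes the clone 4 libraries lay above the 3 others without overlap, and the fitted changes were 2.57, 1.97, 2.23 and 2.31. The imprinted non-coding RNA H19 had 183 and 500.4 in clone 4, 61.4 in parental cells and 33.3 and 67.2 in clone 3 and LINC02582 had 144 and 299 in clone 4, 42.3 in parental cells and 61.1 and 45.5 in clone 3. Both were higher in the treated than in the untreated clone 4 library, and without the treated library neither was called against parental cells (adjusted p = 0.138 and 0.0959) or against clone 3 (0.0629 and 0.229). LINC02582 was also not called against clone 3 without the treated clone 3 library (adjusted p = 0.0804). CYP24A1, the hydroxylase that inactivates vitamin D, had 213 and 237 in clone 4, 55.4 in parental cells and 76.8 and 103 in clone 3. Its rise against parental cells had an adjusted p of 0.000154, but the difference from clone 3 (1.32) was lost when any 1 of the 4 clone libraries was left out (adjusted p from 0.0802 to 0.406).

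For 38 moved genes each clone 3 library lay 2-fold or more on the opposite side of the parental library, 34 of which fell in clone 4 and 4 of which rose. The expression filter favours such falls. Of those named, ATP10A, GALNT13, ADAM19, B3GALNT1, KRT19, ZNF711 and NAP1L3 reached the required mean only through clone 3. CCND2, cyclin D2, which drives entry into S phase with CDK6, had 3599.7 normalized counts in parental cells, 314 and 304 in clone 4 and 28654 and 27813 in clone 3. It fell in clone 4, with a fitted change of -3.54 ± 0.17 (log2 ± SE, adjusted p = 1.85e-96) while clone 3 was above parental cells, a difference of -6.51 between the clones. ATP10A and GALNT13 belonged to the same set. ADAM19, a membrane protease, had 46.3 in parental cells, 0 and 1.06 in clone 4 and 297 and 359.7 in clone 3, and B3GALNT1, a glycosyltransferase, had 144 in parental cells, 0 and 2.12 in clone 4 and 501 and 624 in clone 3. Their parental to clone 4 ratios were 89.3 (95% counting interval 15.3 to 3604) and 139 (95% counting interval 37.7 to 1158). ADAM19 overlaps CYFIP2 and B3GALNT1 overlaps NMD3 on the other strand.

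ZNF711, an X-linked zinc finger protein, had 214 in parental cells, 0 and 5.29 in clone 4 and 657 and 811 in clone 3. It was high in clone 3 and near 0 in clone 4, but without either clone 3 library it was not called against parental cells (adjusted p = 0.121 and 0.118) or against clone 3 (0.102 and 0.121). Among the rises, NDNF, a secreted neuronal factor, had 105 in parental cells, 245 and 348 in clone 4 and 34.3 and 51.4 in clone 3. The microRNA host transcript MIR99AHG had 191 in parental cells, 493 and 391 in clone 4 and 85.2 and 69.2 in clone 3, and the ubiquitin ligase RNF217 had 183 in parental cells, 379 and 422 in clone 4 and 88 and 72.1 in clone 3. In these 3 genes clone 4 was above and clone 3 below parental cells. NDNF was not called against parental cells without the treated clone 4 library (adjusted p = 0.187), nor MIR99AHG without the untreated one (0.134). RNF217 was not called on leaving out any 1 of the 4 clone libraries (adjusted p from 0.0508 to 0.131).

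Rises that clone 4 shared with clone 3 were led by genes at or near 0 counts in parental cells. Of the 689 moved rises, 26 had 3 counts or fewer in parental cells, and all 26 were shared. From so low a parental count a few counts in clone 3 already make 2-fold, so that class is nearly fixed for these genes. LIN7A, a scaffold protein of cell polarity complexes, had 1.01 normalized counts in parental cells, 2329.5 and 2106 in clone 4 and 1158 and 1203 in clone 3. The clone 4 to parental ratio was 2204 (95% counting interval 395 to 87086), and clone 4 exceeded clone 3 by 0.91 ± 0.16 (adjusted p = 7.88e-07). SUCNR1, the succinate receptor, had 0 in parental cells, 367 and 227 in clone 4 and 18.5 and 14.8 in clone 3. Parental cells held no count, clone 3 was low and clone 4 was high, at least 75.3-fold over a floor of 3 counts.

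FIRRE, a long non-coding RNA transcribed from the X chromosome, had 0 in parental cells, 154 and 194 in clone 4 and 126 and 155 in clone 3. RSPO3, a secreted enhancer of WNT signalling, had 0 in parental cells, 116 and 241 in clone 4 and 128 and 121 in clone 3. Both clones lay at similar levels, and clone 4 was at least 50.8-fold and 38.4-fold above the parental floor. PLA2G4A, the cytosolic phospholipase that releases arachidonic acid, had 0 in parental cells, 33.6 and 59.2 in clone 4 and 251 and 261 in clone 3 and was higher in clone 3.

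CSRNP3, a nuclear protein, had 1.01 in parental cells, 334 and 442 in clone 4 and 261 and 289 in clone 3, and MAN1A1, a Golgi mannosidase, had 2.01 in parental cells, 516 and 631 in clone 4 and 307 and 461 in clone 3. GPC6, a cell surface glypican, had 11.1 in parental cells, 2952 and 2896 in clone 4 and 1274 and 1310.4 in clone 3. In all 3 genes both clones exceeded parental cells in every library, and clone 4 exceeded clone 3 past the test only for GPC6 (1.18 ± 0.15, adjusted p = 8.48e-13). Over all 452 shared rises, 61 were higher still in clone 4 than in clone 3 and 67 were lower by the test between clones. Among all expressed genes the shares were 6.52% higher and 9.21% lower.

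Most falls that clone 4 shared with clone 3 did not differ past the test between clones. A larger share of them than of all expressed genes was nevertheless lower in clone 4. Of the 547 shared falls 102 were lower in clone 4 and 37 were higher, the share over all expressed genes being 9.21% lower and 6.52% higher, and their median difference from clone 3 was -0.09. ECEL1, a membrane peptidase, had 8639 normalized counts in parental cells, 9.16 and 9.52 in clone 4 and 79.6 and 71.2 in clone 3. PXDN, a peroxidase that cross-links basement membrane collagen, had 8438 in parental cells, 18.3 and 16.9 in clone 4 and 2989 and 2945 in clone 3. The fitted changes against parental cells were -9.85 ± 0.39 and -8.90 ± 0.30 (adjusted p = 7.01e-135 and 8.97e-184), and against clone 3 -3.01 and -7.39, so clone 4 was lowest in both.

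HTATIP2, a short-chain reductase, had 1114 in parental cells, 3.05 and 1.06 in clone 4 and 192 and 220.4 in clone 3, and NBL1, a secreted BMP antagonist that shares reads with MICOS10, had 949.8 in parental cells, 3.05 and 0 in clone 4 and 201 and 219 in clone 3. Clone 3 lay between parental cells and clone 4 in both. COCH had 1177 in parental cells, 3.05 and 0 in clone 4 and 6.48 and 4.94 in clone 3 (it overlaps STRN3 on the other strand), PRTFDC1 had 2207 in parental cells, 3.05 and 3.17 in clone 4 and 9.26 and 7.91 in clone 3 and FAM184A had 858 in parental cells, 2.03 and 1.06 in clone 4 and 11.1 and 19.8 in clone 3. In these 3 both clones were near 0 counts. The histone gene H4C8 had 2029 in parental cells, 3.05 and 2.12 in clone 4 and 625 and 736 in clone 3, but H4 genes are nearly identical in sequence.

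Several gene lists had similar medians in both clones. Among them was sterol synthesis and uptake, the SREBP-driven pathway that supplies cholesterol. Of 23 expressed genes 17 fell and 1 rose, with a median of -0.86 (-0.65 after GC correction), and 6 of the 7 that met the 2-fold rule were shared. FDFT1, squalene synthase, had 4501 in parental cells, 1626 and 1501 in clone 4 and 1797 and 1345 in clone 3. MVD, of the mevalonate pathway, had 958 in parental cells, 303 and 305 in clone 4 and 462 and 374 in clone 3. Parental cells were highest in both and the clones did not differ past the test. SC5D rose by 0.71. Of 32 lysosomal genes 18 fell and 1 rose (median -0.56). The protease CTSZ had 1924 in parental cells, 497 and 515 in clone 4 and 777 and 824 in clone 3, and CTSB had 7138 in parental cells, 2594 and 3238 in clone 4 and 2763 and 2925 in clone 3. SQSTM1, an autophagy receptor, was the single rise (4783 in parental cells, 8599 and 8633 in clone 4 and 9572 and 8788 in clone 3).

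YAP and its cofactors act on TEAD factors to induce matricellular and cytoskeletal genes. Of 29 expressed effectors and targets 17 rose and 4 fell in clone 4 (median 0.68). IGFBP3 had 606 in parental cells, 22816 and 28287 in clone 4 and 5494 and 6568 in clone 3. ANKRD1 had 17.1 in parental cells, 687 and 572 in clone 4 and 1209 and 1709 in clone 3. CCN2 had 133 in parental cells, 825 and 1075 in clone 4 and 533 and 488 in clone 3. Every clone library exceeded parental cells. The log2 difference of clone 4 minus clone 3 was 2.08 for IGFBP3, 0.89 for CCN2 and -1.21 for ANKRD1. YAP1 itself did not pass (6161 in parental cells, 5349 and 5123 in clone 4 and 4226 and 4647 in clone 3), and WWTR1, its paralog TAZ, rose by 1.05.

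NRF2 targets detoxify and restore glutathione, and 13 of 28 rose and 3 fell (median 0.51). The cystine transporter SLC7A11 had 407 in parental cells, 1663 and 1595 in clone 4 and 899 and 989 in clone 3, and the efflux pump ABCC2 had 41.3 in parental cells, 221 and 318 in clone 4 and 207 and 218 in clone 3. Both clones were above parental cells. GPX4, which reduces lipid peroxides, fell instead. It had 8215 in parental cells, 3080.2 and 2476 in clone 4 and 4963 and 5077 in clone 3, lowest in clone 4 (clone 4 minus clone 3, -0.85). Of 6 expressed drug efflux pumps 3 rose and 1 fell, and only ABCC2 among them met the 2-fold rule. ABCB1 had 7.05 in parental cells, 12.2 and 24.3 in clone 4 and 991 and 915 in clone 3 and did not pass against parental cells.

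Mesenchymal genes showed 8 rises and 3 falls among 15 expressed members. CDH2, N-cadherin, had 17.1 in parental cells, 1181 and 1242 in clone 4 and 1835 and 2065 in clone 3, and FN1, fibronectin, had 10.1 in parental cells, 146 and 106 in clone 4 and 83.3 and 164 in clone 3. Both were high in both clones. ZEB2, a repressor of epithelial genes, had 83.6 in parental cells, 232 and 388 in clone 4 and 85.2 and 118 in clone 3 and was particular to clone 4 (adjusted p = 0.000291, 0.0671 without the treated clone 4 library). AXL, a receptor kinase, had 2674 in parental cells, 7234 and 8431 in clone 4 and 3461 and 4180.4 in clone 3 and was particular as well (1.55 ± 0.19). TPM2 and VIM went down: TPM2 had 5221 in parental cells, 82.4 and 60.3 in clone 4 and 1221 and 1013 in clone 3 and VIM had 83092 in parental cells, 37552 and 40141 in clone 4 and 33551 and 37558 in clone 3. Among expressed epithelial genes the 2-fold falls were particular to clone 4, although ESRP2, under the filter, was low in both clones. CDH2 and FN1 were at least 2-fold above parental cells in all 4 clone libraries.

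Matrix and adhesion genes were mixed. Of 19 matrix proteins and proteases 5 rose and 10 fell (median -0.73), of 13 collagens 2 rose and 5 fell (-0.44), and of 11 integrin subunits 4 rose and 4 fell (-0.36). For comparison, 17.7% of all expressed genes rose and 22.3% fell. The membrane metalloprotease MMP14 had 2569 in parental cells, 15.3 and 7.41 in clone 4 and 71.3 and 77.1 in clone 3. The basement membrane protein NID2 had 10855 in parental cells, 1037 and 1273 in clone 4 and 6165 and 5668 in clone 3 and was particular to clone 4. THBS1, thrombospondin, had 1440.3 in parental cells, 14174 and 18893 in clone 4 and 35716 and 38935 in clone 3. MMP14 was a shared fall, whereas THBS1 was higher in every clone library.

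COL17A1 had 3263 in parental cells, 136 and 221 in clone 4 and 212 and 261 in clone 3, and COL4A2 had 30836 in parental cells, 6234 and 6114 in clone 4 and 13918 and 14097 in clone 3. COL8A1 had 974 in parental cells, 3676 and 4295 in clone 4 and 2669 and 3242 in clone 3. The first 2 were shared falls and COL8A1 was a shared rise. The collagen-binding subunits ITGA2 and ITGA1 rose, ITGA2 with 44.3 in parental cells, 882 and 954 in clone 4 and 3478 and 3609 in clone 3 and ITGA1 with 117 in parental cells, 836 and 1042 in clone 4 and 1341 and 1286 in clone 3. ITGA2 was lower in clone 4 than in clone 3 (log2 difference -1.95).

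Semaphorins, ephrins, netrins and slits guide axons and migrating cells. Of 27 expressed genes of these ligands and their receptors, 14 rose and 10 fell, and 19 met the 2-fold rule. The median was 0.85, or 0.80 with the 2 genes at the parental floor set to the lower end of their counting interval. Among ligands, SEMA3A (above) was particular to clone 4 and EFNB2 had 133 in parental cells, 1086 and 1213 in clone 4 and 1062 and 1219.5 in clone 3, high in both clones. Among receptors, NRP2, which binds class 3 semaphorins, had 37.3 in parental cells, 177 and 293 in clone 4 and 107 and 209 in clone 3 and PLXND1 had 3079 in parental cells, 416 and 678 in clone 4 and 176 and 206 in clone 3. NRP2 was lowest and PLXND1 highest in parental cells. ROBO2 and SEMA5A were near 0 in parental cells and passed the test in clone 4 at low counts. SEMA5A had 2.01 in parental cells, 15.3 and 26.4 in clone 4 and 854 and 1153 in clone 3 and ROBO2 had 2.01 in parental cells, 10.2 and 18 in clone 4 and 758 and 698 in clone 3, so both were mainly genes of clone 3, and the ROBO2 call was lost without either clone 3 library (adjusted p = 0.0740 and 0.0709) or the treated clone 4 library (0.132). In a fit without clone 3, SEMA5A was not called (adjusted p = 0.178).

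Receptor tyrosine kinases split into 7 rises and 8 falls of 22 (median -0.25, 0.07 after GC correction). Among all expressed genes the shares were 17.7% and 22.3%. ERBB3 had 791 in parental cells, 87.5 and 95.2 in clone 4 and 226 and 208 in clone 3, and the TAM receptors MERTK and TYRO3 fell while AXL, the other TAM receptor, rose. MERTK had 2390.0 in parental cells, 474 and 503 in clone 4 and 254 and 233 in clone 3 and TYRO3 had 1754 in parental cells, 438 and 437 in clone 4 and 279.6 and 349 in clone 3. Both clones were low in all 3 falls. IGF1R had 193 in parental cells, 357 and 786 in clone 4 and 114 and 142 in clone 3, and its rise (adjusted p = 0.00141) was not called without the treated clone 4 library (adjusted p = 0.199).

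Within the IGF axis 4 of 14 expressed members rose and 7 fell. The binding protein IGFBP5 had 766 in parental cells, 20789.7 and 24854 in clone 4 and 2011 and 2409 in clone 3, clone 4 above clone 3 by 3.37 ± 0.15 (adjusted p = 1.32e-107). The mRNA-binding protein IGF2BP1 had 803 in parental cells, 12.2 and 22.2 in clone 4 and 558 and 649 in clone 3, a fall particular to clone 4 (-5.55 ± 0.39, adjusted p = 9.69e-44). INSR had 946 in parental cells, 284 and 363 in clone 4 and 293 and 359.7 in clone 3 and was a shared fall. IGFBP3, described with the YAP targets, and IGFBP5 were thus the largest rises of the axis and both were highest in clone 4.

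Among signalling pathways, Notch genes gave 4 rises and 5 falls of 14, WNT genes 3 and 6 of 23, TGF-beta and BMP genes 8 and 5 of 32 and MAPK feedback genes 4 and 8 of 19. The shares over all expressed genes were 17.7% higher and 22.3% lower. The Notch target HEY2 had 2.01 in parental cells, 363 and 401 in clone 4 and 6.48 and 8.89 in clone 3, a clone 4 to parental ratio of 189 (95% counting interval 52.3 to 1568), and clone 4 exceeded clone 3 by 5.64 ± 0.49. HES1, another Notch target, had 3275 in parental cells, 1004 and 999 in clone 4 and 1249 and 1281 in clone 3 and was a shared fall. The WNT antagonist DKK3 had 1871 in parental cells, 54.9 and 65.6 in clone 4 and 318 and 289 in clone 3 and WNT5A had 3354 in parental cells, 429 and 485 in clone 4 and 704 and 589 in clone 3, both lowest in clone 4. LRP5, a WNT coreceptor, had 1089.8 in parental cells, 55.9 and 122 in clone 4 and 501 and 629.5 in clone 3. RNF43, which removes WNT receptors, had 75.5 in parental cells, 543 and 688 in clone 4 and 548 and 475 in clone 3 and was a shared rise.

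The BMP pseudoreceptor BAMBI had 407 in parental cells, 82.4 and 121 in clone 4 and 345 and 478 in clone 3 and was particular to clone 4 (adjusted p = 1.11e-06). The inhibitory SMAD7 had 328 in parental cells, 1116 and 1147 in clone 4 and 753 and 941 in clone 3, and SMAD9 had 226 in parental cells, 628 and 876 in clone 4 and 146 and 184 in clone 3. SMAD7 was a shared rise and SMAD9 was particular to clone 4. Of the MAPK feedback genes, ETV4 had 2083 in parental cells, 429 and 508 in clone 4 and 742 and 642 in clone 3 and SPRY2 had 3977 in parental cells, 1709 and 1718 in clone 4 and 1139.7 and 1183 in clone 3, both lower in both clones. EMP1 had 234 in parental cells, 495 and 628 in clone 4 and 112 and 122 in clone 3, up in clone 4 and down in clone 3, and its rise was not called without the treated clone 4 library (adjusted p = 0.0606).

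Cell cycle genes gave 10 rises and 7 falls of 48, with a median of 0.10, where all expressed genes gave 17.7% and 22.3%. TOP2A had 13185 in parental cells, 34419 and 27582 in clone 4 and 31879 and 35049.9 in clone 3, and CENPF had 10020.4 in parental cells, 30840.1 and 22772 in clone 4 and 22142 and 29003 in clone 3, both lowest in parental cells. Of 13 CDK inhibitors, D-type cyclins and partners 7 rose and 2 fell. CDK6 had 4567 in parental cells, 10455 and 11118 in clone 4 and 16587 and 17318 in clone 3. CDKN2B had 35.3 in parental cells, 172 and 167 in clone 4 and 178 and 161 in clone 3, alike in both clones, whereas CDKN2A had 60.4 in parental cells, 125 and 162 in clone 4 and 1070.2 and 1439.9 in clone 3. CDKN2A was much higher in clone 3, and in a fit without clone 3 its rise in clone 4 was not called (adjusted p = 0.134). Of 31 p53 targets 4 rose and 11 fell. TP53INP1 had 937 in parental cells, 15.3 and 19 in clone 4 and 232 and 199 in clone 3, SPATA18 had 306 in parental cells, 14.2 and 18 in clone 4 and 249.965 and 274 in clone 3, and DDB2 had 945 in parental cells, 2273 and 2302 in clone 4 and 686 and 699.7 in clone 3. The first was lowest in clone 4 and SPATA18 was low in clone 4 alone, whereas DDB2 rose in clone 4 by 1.28.

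Of 33 glycolysis and hypoxia genes 3 rose and 9 fell against parental cells (12 and 11 after GC correction), and 12 were higher and 0 lower than in clone 3. EGLN3, an oxygen sensor, had 447 in parental cells, 44.8 and 96.3 in clone 4 and 69.4 and 72.1 in clone 3, and HK1 had 13009.8 in parental cells, 4977 and 4917 in clone 4 and 5983 and 5624 in clone 3. ADM rose (195 in parental cells, 673 and 727 in clone 4 and 453 and 533 in clone 3). Of 30 unfolded protein and integrated stress genes 3 rose and 7 fell (17.7% and 22.3% of all expressed genes). DDIT4, an inhibitor of mTORC1, had 30235 in parental cells, 4577 and 4362 in clone 4 and 3446 and 2947 in clone 3 and was low in both clones. Of 67 ribosomal protein genes 0 rose and 33 fell, none by 2-fold (median -0.42, -0.18 after GC correction, with 14 falls). RPL3 had 21748 in parental cells, 11245 and 9695 in clone 4 and 11148 and 11819 in clone 3. Of 54 respiratory chain genes 1 rose and 19 fell (median -0.37), again none by the 2-fold rule. Metallothioneins gave 1 rise and 3 falls of 6, and MT1E had 2161 in parental cells, 10.2 and 2.12 in clone 4 and 3.7 and 2.96 in clone 3, although reads of this family are shared between its members.

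Developmental regulators, the class that PRC2 usually silences, changed both ways. Of 33 expressed developmental transcription factors 8 rose and 13 fell (median -0.67). MEOX1 had 3583 in parental cells, 9.16 and 8.46 in clone 4 and 13 and 6.92 in clone 3, and DLX5 had 637 in parental cells, 63.1 and 95.2 in clone 4 and 176 and 166 in clone 3. MEIS2 had 34.2 in parental cells, 497 and 549 in clone 4 and 433 and 536 in clone 3. MEOX1 was near 0 in both clones and MEIS2 was a shared rise. Of 19 HOX genes 3 rose and 1 fell against parental cells, and 9 were higher and 1 lower than in clone 3. Of the 3 rises, HOXA5 and HOXA7 were not called in a fit without clone 3 (fitted changes 0.47 and 0.69). HOXA3 had 475 in parental cells, 903 and 915 in clone 4 and 646 and 517 in clone 3, and HOXB13 had 521 in parental cells, 162 and 199 in clone 4 and 168 and 172 in clone 3.

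Of 14 imprinted genes 5 rose and 5 fell. ZDBF2 had 5.04 in parental cells, 903 and 1117 in clone 4 and 1284 and 1624 in clone 3, high in both clones, and GNAS had 12333 in parental cells, 2582 and 2777 in clone 4 and 4863 and 5277 in clone 3, lowest in clone 4. Of 5 expressed X-linked cancer-testis and related genes 4 fell. After GC correction 2 fell and 1 rose, and the falls of MAGED2 and MAGED4 were not called (adjusted p = 0.16 and 0.113). NAP1L3 passed the filter only through clone 3. NAP1L3 had 6.04 in parental cells, 0 and 0 in clone 4 and 329 and 336 in clone 3 and differed between the clones by at least 104-fold, while its fall from 6.04 in parental cells was not called without 1 clone 4 library (adjusted p = 0.0729 and 0.0736). Of 8 enzymes of DNA methylation and H3K27 demethylation 2 rose and 0 fell. TET2, a 5-methylcytosine dioxygenase, had 1729 in parental cells, 3484 and 3989.6 in clone 4 and 2621 and 2699.9 in clone 3. Neither of 2 expressed Schlafen genes passed against parental cells, although SLFN11 had 3.02 in parental cells, 0 and 0 in clone 4 and 631 and 667 in clone 3, at 0 in clone 4 and high in clone 3 only. With genes at the floor set to their bound, the cancer-testis median moved from -1.02 to -0.93 and the Schlafen median from -1.83 to 0.17.

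**Figure D4:**
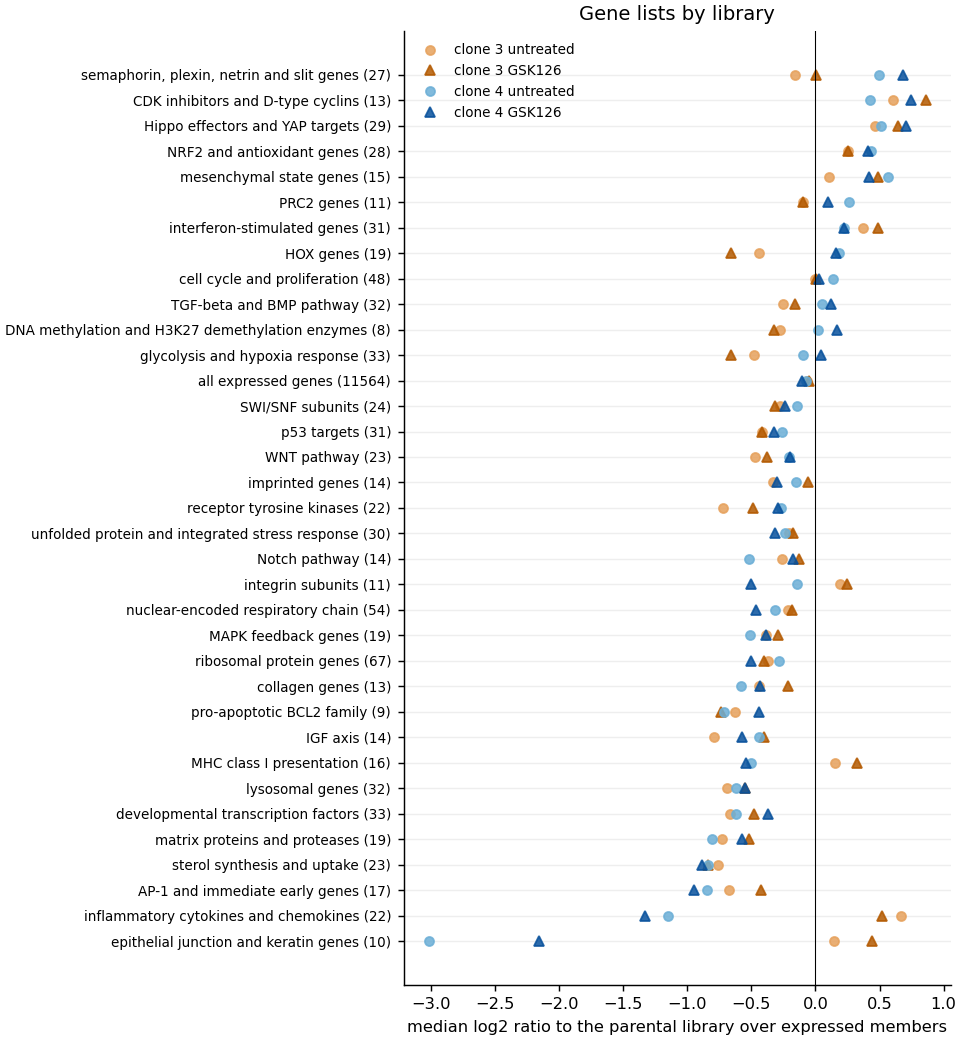
Median log2 ratio to the parental library over the expressed members of 34 lists and all expressed genes, in each clone library (number of expressed members in parentheses, lists with at least 8). The epithelial and inflammatory medians are below -1 in both clone 4 libraries and above 0 in both clone 3 libraries, while sterol, lysosomal and AP-1 medians are negative in all 4.

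The study follows SMARCA4, SMARCA2, BCL2, ARID1A and EZH2, and these genes were examined in it with the same cells, so their direction here is not independent evidence. SMARCA2 had 1238 normalized counts in parental cells, 3479 and 3473 in clone 4 and 2532 and 3136 in clone 3. Parental cells were lowest and the clones did not differ past the test, with a rise of 1.49 ± 0.19 in clone 4 (adjusted p = 7.17e-13). SMARCA4 had 13474 in parental cells, 8331 and 8609.7 in clone 4 and 8652 and 8934 in clone 3. It fell by less than 2-fold (-0.67 ± 0.15, adjusted p = 0.000122), clone 3 lay at the same level, and after correction for GC content the change was -0.26 (adjusted p = 0.156). BCL2, the anti-apoptotic protein, had 362 in parental cells, 564 and 665 in clone 4 and 579 and 688 in clone 3, with a change of 0.76 ± 0.27 (adjusted p = 0.0174) that was not called without the treated clone 4 library or either clone 3 library (adjusted p from 0.105 to 0.143).

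EZH2 had 2746 in parental cells, 3296 and 3223 in clone 4 and 2567 and 2607 in clone 3 and ARID1A had 389.8 in parental cells, 421 and 708 in clone 4 and 353 and 298 in clone 3. Neither passed against parental cells (adjusted p = 0.284 and 0.235), and the treated clone 4 library was the highest for ARID1A. Of 24 SWI/SNF subunits 3 rose and 4 fell (median -0.17). SMARCD2 had 3451 in parental cells, 1721 and 1576 in clone 4 and 1679 and 1855 in clone 3, lower in both clones, and PBRM1 rose (2623 in parental cells, 3968 and 4327 in clone 4 and 3719 and 3781 in clone 3). Of 11 PRC2 genes 3 rose and 1 fell, and the median was 0.25 against parental cells. None of the 3 rises, SUZ12, EED and AEBP2, was called after GC correction (adjusted p = 0.104, 0.432 and 0.171), and without either clone 3 library EED (0.0543 and 0.0533) and AEBP2 (0.204 and 0.207) were not called. AEBP2 was not called without either clone 4 library as well (0.0699 and 0.166). SUZ12, a core subunit, had 1479.5 in parental cells, 2490.2 and 2833 in clone 4 and 1636 and 1951 in clone 3, a rise of 0.85 ± 0.20 (adjusted p = 0.000189) that became 0.42 after GC correction. EZH1, the paralog of EZH2, fell, with 1176 in parental cells, 617 and 536 in clone 4 and 598 and 584 in clone 3.

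Of 4 expressed anti-apoptotic BCL2 family genes, BCL2 alone rose and 0 fell. Of 9 pro-apoptotic members 0 rose and 4 fell, with a median of -0.47. BOK had 449 in parental cells, 23.4 and 57.1 in clone 4 and 171 and 164 in clone 3, and BBC3, which encodes PUMA, had 630.5 in parental cells, 120.0 and 95.2 in clone 4 and 97.2 and 86 in clone 3. BAD had 507 in parental cells, 188 and 217 in clone 4 and 328 and 304 in clone 3. BOK was lowest in clone 4 (-2.06 ± 0.41 against clone 3), and BBC3 did not differ past the test between the clones.

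The untreated and treated libraries of clone 4 differed at fewer genes than either did from parental cells. Of the 1688 moved genes 103 differed at least 2-fold between the 2 clone 4 libraries, and 92 of the 103 were higher in the treated one. Among all expressed genes the numbers were 264 and 205. With 1 library of each kind there is no replicate and no test. The 5 moved genes with the largest difference were KRT19, ZNF711, TP53I11, COCH and NBL1, all of which held between 0 and 8 counts in clone 4, where no change can be read. Among moved genes with at least 50 counts in both libraries, chosen after the values were seen, MXRA5 had 161 normalized counts untreated and 498 treated, PCLO 244 and 673, and BACE2 64.1 and 164.

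GC content moved with the direction of change. The median GC content of annotated transcripts was 43.0% in moved rises, 56.1% in moved falls and 48.3% in all expressed genes. Of genes under 40% GC, 14.9% rose and 2.18% fell by the 2-fold rule, and of genes over 60% GC, 2.26% rose and 21.2% fell. The median log2 ratio of clone 4 to parental cells ran from 0.58 and 0.43 in the lowest class to -0.58 and -0.49 in the highest. After correction for GC, 616 rises and 714 falls remained by the same rule, 1146 of them moved in the uncorrected fit. Whether library preparation has a part in this slope was not tested.

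The CG content of promoters differed among the classes. A CG ratio above 0.6 was found in 64.2% of the windows of shared rises and 80.9% of those of particular rises, and in 79.8% of shared and 75.1% of particular falls, against 85.7% of all expressed genes. Of the 26 rises from the parental floor 22 had a window, and 6 of these (27.3%) exceeded 0.6, with a median ratio of 0.444. Of the 20 windows of falls to the clone 4 floor 16 (80.0%) exceeded 0.6.

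Falls were not spread evenly along the genome. When expressed genes were grouped into 455 windows of 25 neighbours, a division chosen after the data were seen, the 14 windows with the lowest median after GC correction all lay on chromosome 10. On that chromosome 15 consecutive windows of 18, from 176028 to 112064696 (GRCh37), had a negative median. Beyond this block, the next window had a median of 0.34 after GC correction, and the last windows had -0.10 and -0.04. Of the 375 genes in this block 80 had moved down (21.3%) and 9 up (2.40%), against 8.32% and 6.03% of 10928 genes on other chromosomes. The remaining 74 genes of chromosome 10 had 3 falls and 6 rises. The block median was -0.52 and -0.56 in the 2 clone 4 libraries and -0.52 and -0.50 in clone 3, so it did not separate the clones, and 60 of its moved genes were shared and 17 particular. DDIT4, HK1, PRTFDC1 and COL17A1, which fell, and ABCC2, which rose, lie in the block.

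**Figure D5:**
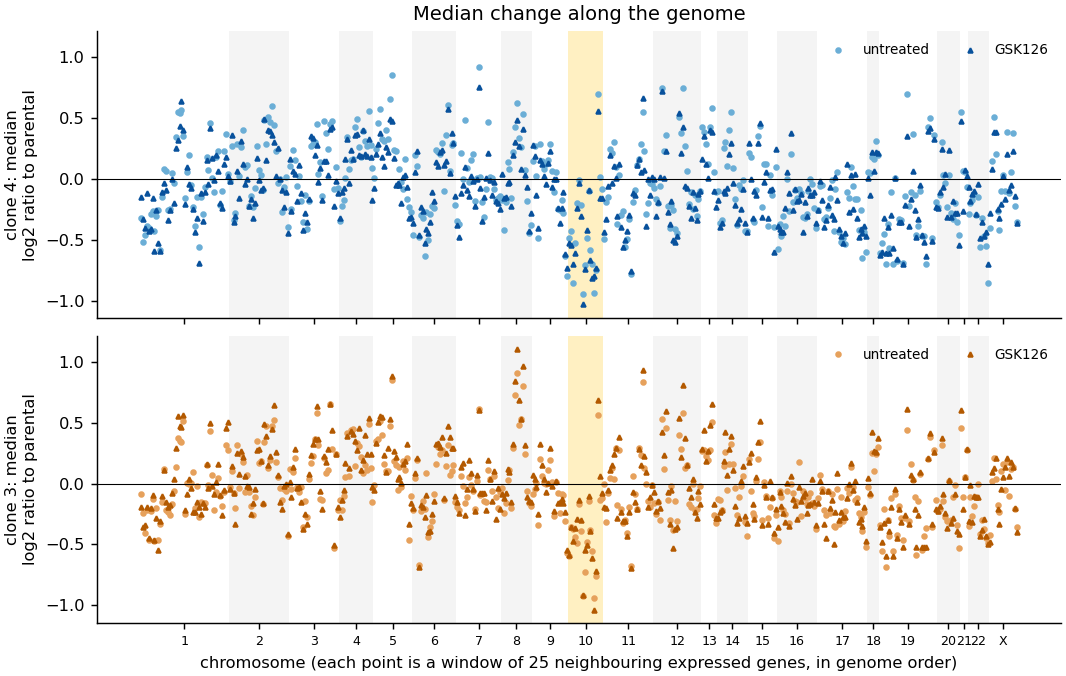
Median log2 ratio to the parental library in windows of 25 neighbouring expressed genes in genome order, for clone 4 (top) and clone 3 (bottom), untreated (circles) and GSK126-treated (triangles). Chromosome 10, shaded yellow, holds the lowest medians, near -1, in both clones.

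Marker genes of other cell types were mostly under the expression filter. Leukocyte, endothelial and fibroblast markers had 0 expressed members among the 5, 5 and 8 that were matched of 8, 7 and 8 listed, with summed normalized counts of 24.4 to 40.2, 11.1 to 36.0 and 89.5 to 362 over the libraries, the last highest in parental cells. LUM was at 0 in parental cells and clone 4, and CD79A at 0 in clone 4. Of 4 matched neural markers of 7 listed 1 was expressed and did not pass, with a summed level of 121 to 343. Of 13 genes listed for clear cell carcinoma 11 were matched and 7 were expressed. The list includes WT1, ESR1 and PGR, which mark other ovarian carcinomas and are usually low in this type. Among expressed members 2 rose in clone 4, and the 1 that fell was EPCAM, lost in clone 4 as described above. PAX8 had 4523 in parental cells, 3083 and 3845 in clone 4 and 4116 and 3834 in clone 3, and SPP1 had 8009 in parental cells, 24454 and 21277 in clone 4 and 29962 and 39424 in clone 3. WT1 had 38.3 in parental cells, 0 and 2.12 in clone 4 and 169 and 168 in clone 3 and GPX3 19.1 in parental cells, 0 and 0 in clone 4 and 0 and 0 in clone 3, under the filter. Of 6 expressed genes of clear cell and Mullerian identity 2 rose and 1 fell. What part these marker genes have in the other results was not tested.

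Genes near the 2-fold line show how the rule divides them. Just inside it, the weaker of the 2 clone 4 log2 ratios was -1.00023 for SEPTIN6, 1.00061 for CCP110 and 1.00117 for ZNF66. Just outside lay MPHOSPH10 at 0.999775.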

How the data were processed

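RNA-seq libraries (TruSeq Stranded Total RNA per the labels) of TOV21G parental cells, EIR clone 3 and EIR clone 4 were analysed from a table of estimated counts per gene. The authors aligned reads to hg19 with Bowtie2, obtained estimated counts with RSEM (version 1.2.3 in the submitters' processing notes) and deposited them as whole numbers. Whether counting used strand is not given in the sources used here. Of 30476 identifiers 29203 (95.8%) matched a symbol in GENCODE v44lift37, from which GRCh37 coordinates and transcript GC content were taken.

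Differential expression was tested with DESeq2 1.42.0 (two-sided Wald test, Benjamini-Hochberg adjustment, threshold 0.05) in R 4.3.3, with all 5 libraries in 3 groups, and with edgeR 4.0.16 (quasi-likelihood) as an alternative. Every adjusted p in the text is from DESeq2. The DESeq2 fit gave an adjusted p to 16295 genes. Expressed genes had a mean of at least 100 normalized counts. Ratios per library used a pseudocount of 0.5, and fits were tested on simulated data. Tables were made in Python 3.11.15 with pandas 2.3.3 and numpy 2.4.6.

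Genes at 3 counts or fewer in each library of a group were given a bound against 3 counts per library if all were at 0, and otherwise a ratio of pooled counts with an exact interval. Intervals and floors cover counting error only. Replicate cultures under the same treatment are not stated. The p-values therefore measure the spread between the untreated and the GSK126-treated library within each clone, which includes any effect of treatment.

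Named genes were the genes the study follows, the 8 largest fitted rises and falls with a symbol in the shared and particular classes, the 5 largest in each direction with clone 3 opposite, up to 5 members of each list with the largest change, and the 5 with the largest treatment difference in clone 4. List members outside this rule were chosen as background after their values were seen. The members and 40 gene lists were chosen with earlier results of these data known. Alternatives covered the test, scaling, filter, fold, pseudocount, GC correction, treatment as a block and leaving out each clone library. The genome windows and the list medians under each alternative were added after the data were seen. Some genes that the rule names are not reported here.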

Additional observations from a re-analysis of the deposited data

Results flagged for a closer look

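The genes below lay on opposite sides of parental cells in clone 4 and clone 3, by 2-fold or more in each of the 4 clone libraries, and passed the DESeq2 test between the clones. Other named genes, such as ARAP2 and EMP1, lay on opposite sides by less than 2-fold in at least 1 library. In log2 units of clone 4 minus clone 3, the genes lower in clone 4 were GALNT13 at -11.78, ATP10A at -11.66, NAP1L3 at -10.77, ADAM19 at -9.31, B3GALNT1 at -9.08, KRT19 at -8.94, ZNF711 at -8.13, CCND2 at -6.51 and CXCL1 at -3.76. The first 7 had 0 to 8 counts in each clone 4 library, so the size of their fitted difference depends on the fit and is not a bound. These 7 also reached the required mean only through clone 3. The genes higher in clone 4 were NDNF at 2.79, MIR99AHG at 2.52 and RNF217 at 2.32. The clones were compared with each other directly, so the differences in log2 units use no parental value, although the choice of these genes does.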

How the results depend on the processing

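The counts of 1688 moved, 999 shared and 364 particular genes stayed within 1.5 times under edgeR, TMM factors, total counts, a pseudocount of 5, the mean over parental and clone 4 libraries, GC correction (1330, 799 and 296) and a fit without clone 3 (1567 moved). Shared genes numbered 1537 with a mean of at least 10 and 1539 with no filter. At 1.5-fold there were 3438 moved and 2429 shared genes, and at 4-fold 473 moved, 248 shared and 182 particular genes. Leaving out 1 clone library gave 1564 to 2007 moved, 1025 to 1087 shared and 206 to 465 particular genes, with the lowest particular counts, 206 and 207, without a clone 3 library. Scaling to total counts raised the share of rises among moved genes from 40.8% to 48.3% (796 rises and 852 falls).

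With treatment as a replicate block there were 1560 moved, 952 shared and 299 particular genes. The treated and untreated labels are not shown to pair the clones: across expressed genes, which are not independent, the treated minus untreated change correlated at 0.0564 between clones.

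Over the named genes 2160 comparisons under the alternatives kept their direction and their side of the threshold, 118 kept the direction but were no longer called, and none reversed. List medians changed sign for clear cell carcinoma markers (-0.15 to 0.11, GC correction), TGF-beta and BMP genes (0.09 to -0.02, GC correction), receptor tyrosine kinases (-0.25 to 0.07, GC correction) and glycolysis (-0.02 to 0.07 with total counts, 0.32 with GC correction and 0.03 without the untreated clone 4 library). The median of all expressed genes went from -0.08 to 0.02 with GC correction. GC correction also changed the rises from 3 to 7 for SWI/SNF, 10 to 17 for cell cycle, 3 to 12 for glycolysis and 3 to 6 for HOX genes, and the falls from 10 to 6 for matrix, 8 to 4 for interferon-stimulated, 7 to 4 for cell cycle and 33 to 14 for ribosomal protein genes. For X-linked cancer-testis and related genes, GC correction changed the falls from 4 to 2. The causes were not tested. A single parental library limits every comparison with parental cells.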
